A study of Homo sapiens with 6 samples.

Results

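The 8 genes described here encode the cyclin-dependent kinase (CDK) inhibitors of the Cip/Kip family (CDKN1A, CDKN1B and CDKN1C) and of the INK4 family (CDKN2A, CDKN2B, CDKN2C and CDKN2D), together with the CDK-binding phosphatase CDKN3. They were taken by name, with earlier results of these data known, from the 19491 genes that the RNA-seq tables list, and each had exactly 1 row. The tables cover PC-3 cells, an established line from a bone metastasis of a human prostate adenocarcinoma, under 3 conditions. Control cells received neither compound, and the labels give their treatment as none. The paper's methods describe vehicle controls for its chemical treatments, with both compounds diluted in water. The treated cells were grown for 48 h with 1 mM GPNA (L-γ-glutamyl-p-nitroanilide) or 10 mM BenSer (benzylserine), both used as inhibitors of the glutamine transporter ASCT2. The compounds were thus tested at different doses, and values for GPNA and BenSer stand side by side without a comparison of potency. According to the paper, BenSer also inhibits the transporter LAT1 in oocytes and appears to have effects that do not pass through ASCT2. All cells were of 1 line, and no genetic change was introduced in any group.

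CDK inhibitors hold back the kinases that move a cell from G1 into S phase and on to mitosis. Cip/Kip proteins bind whole cyclin and CDK complexes, whereas INK4 proteins bind CDK4 and CDK6 themselves and keep D-type cyclins from joining them, so that the retinoblastoma protein RB stays active and E2F factors stay silent. CDKN3 removes the activating phosphate from CDK2 and CDK1, but its RNA is made mainly in dividing cells. TGF-beta signalling, FOXO factors and the stress factor ATF4 are known activators of genes in this group.

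Promoter sequence is shown for the 3 genes with the clearest differences from control in both treatments, because CDKN1A and CDKN2B lay on the other side of control from CDKN3. Each line gives the 250 bases before the RefSeq transcript start, read 5′ to 3′ on the strand of the gene, from GRCh37; capitals mark exact matches, on either strand, to the GC box GGGCGG in CDKN1A and CDKN2B, and to the CCAAT box and the CHR element TTTGAA in CDKN3.
CDKN1A, chr6:36646241-36646490, plus strand: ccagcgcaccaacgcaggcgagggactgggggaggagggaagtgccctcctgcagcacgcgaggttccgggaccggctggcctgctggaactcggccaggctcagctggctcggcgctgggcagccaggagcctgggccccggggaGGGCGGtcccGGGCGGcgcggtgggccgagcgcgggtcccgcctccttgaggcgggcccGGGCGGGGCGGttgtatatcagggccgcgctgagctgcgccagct
CDKN2B, chr9:22009305-22009554, minus strand: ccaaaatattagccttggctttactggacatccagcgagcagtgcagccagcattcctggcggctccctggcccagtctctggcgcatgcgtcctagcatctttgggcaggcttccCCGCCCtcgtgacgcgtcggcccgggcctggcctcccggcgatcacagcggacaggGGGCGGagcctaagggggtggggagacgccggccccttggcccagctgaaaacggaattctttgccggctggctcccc
CDKN3, chr14:54863475-54863724, plus strand: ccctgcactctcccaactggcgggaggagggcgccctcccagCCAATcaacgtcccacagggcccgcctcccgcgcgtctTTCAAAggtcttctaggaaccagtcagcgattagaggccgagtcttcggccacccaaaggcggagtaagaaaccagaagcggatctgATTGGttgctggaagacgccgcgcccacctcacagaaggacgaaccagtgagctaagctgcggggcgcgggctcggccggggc

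The GC box is bound by SP1 and its relatives, and the CCAAT box by NF-Y. CDKN1A held 4 GC box matches, a pair of which overlapped, and CDKN2B held 2. CDKN3 held 1 CHR match, the element read by the MuvB complexes of mitotic genes, with 2 CCAAT matches. GC box matches also lay in windows of CDKN2C (up to 5 in a window), which was lower with BenSer, CDKN2D (2), CDKN1B (1) and CDKN2A (1). CCAAT matches also lay in windows of CDKN1B (2), which was higher with BenSer, CDKN2C (1) and CDKN2D (1). Over all 34788 promoter windows of the same length, 42.6% held a GC box, 32.0% a CCAAT box and 13.3% a CHR match, so matches of these kinds are common. The E2F letters TTTCGCGC, TTTCCCGC, TTTGGCGC and TTTGCCGC (held by 2.78% of windows), the C/EBP-ATF element TGATGCAA (0.776%), the FOXO element GTAAACA (2.98%) and TATAAA (10.8%) had no match in any window of these genes, which says only that those letters were not there. The RefSeq table gave promoter windows for 7 of the 8 genes; CDKN1C had none. The CDKN1A window lay inside the annotated span of the gene (chromosome 6, 36644237 to 36655114, 3 exons in its canonical transcript), because other transcripts start further upstream. The CDKN2B window ended where the gene begins (chromosome 9, 22002902 to 22009304, minus strand, 2 exons). The CDKN3 window crossed the annotated gene start (chromosome 14, 54863567 to 54886936, 8 exons).

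Each group had 2 labelled columns in CPM (reads of a gene scaled to the library total), and library totals ran from 23077986 to 32178154 reads, with 51.6 to 52.7% of reads on the listed genes. Within a group the 2 columns were nearly as close as repeated counts of the same library would be (chi-square per degree of freedom 1.05 to 1.06 over genes, against 8.89 between control and GPNA and 35.3 between control and BenSer), and the labels do not call them separate cultures. Each group was taken as a single sample, although the paper describes tests on 4 replicates. No treatment effect could be tested against replicates, and every interval below is an exact 95% interval for the counting error of the pooled reads only. Differences are in log2(CPM + 1), treated minus control, and "higher" or "lower" is used where that interval lies on a single side of 0. Both treatments were set against the same control columns. The epithelial markers of PC-3 cells were present at 289 (KRT8), 108 (KRT18) and 97.8 CPM (EPCAM) in control cells, and 4 of 16 markers of blood, endothelial and stromal cells had a row in the tables, the most abundant being COL1A1 at 5.57 CPM.

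CDKN1A, CDKN2B and CDKN3 differed most. In BenSer-treated cells CDKN1A RNA was 2.06 times (1.83 to 2.32) and CDKN2B RNA 1.78 times (1.66 to 1.91) its control level, while CDKN3 stood at 0.547 times (0.523 to 0.571). In GPNA-treated cells these genes stood at 1.52 times (1.34 to 1.73), 1.18 times (1.09 to 1.27) and 0.870 times (0.835 to 0.906) of control, in the same order. On the log2(CPM + 1) scale, 3 of the 8 genes passed 1.5-fold with BenSer, 2 of them higher and 1 lower, against 3.54% of the 18976 genes with enough reads (1.96% higher and 1.58% lower). With GPNA 0 of the 8 passed it, against 0.404% of 18828 genes (0.34% higher and 0.0637% lower). The interval lay above 0 for 4 genes and below 0 for 2 with BenSer, where 18.2% and 25.8% of all genes did so, or 44% in all. It lay above 0 for 2 and below 0 for 1 with GPNA, where the shares over all genes were 9.78% and 20.1%, or 29.9% in all. Under TMM scaling these shares of all genes became 22.2% above and 21.6% below for BenSer and 13.7% and 14.6% for GPNA, and the counts of the 8 genes stayed as they were. Between the 2 treatments, 1 of the 8, CDKN3, passed 1.5-fold (1.87% of genes did), and the interval of BenSer minus GPNA lay above 0 for 4 and below 0 for 2 (21.2% and 20.7% of genes, 41.9% in all). The columns of BenSer lay apart from those of control for all 8 genes, above for 5 and below for 3, as they did for 28.5% and 37.5% of all genes. BenSer columns lay above both GPNA columns for 31.7% of genes.

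**Figure D1:**
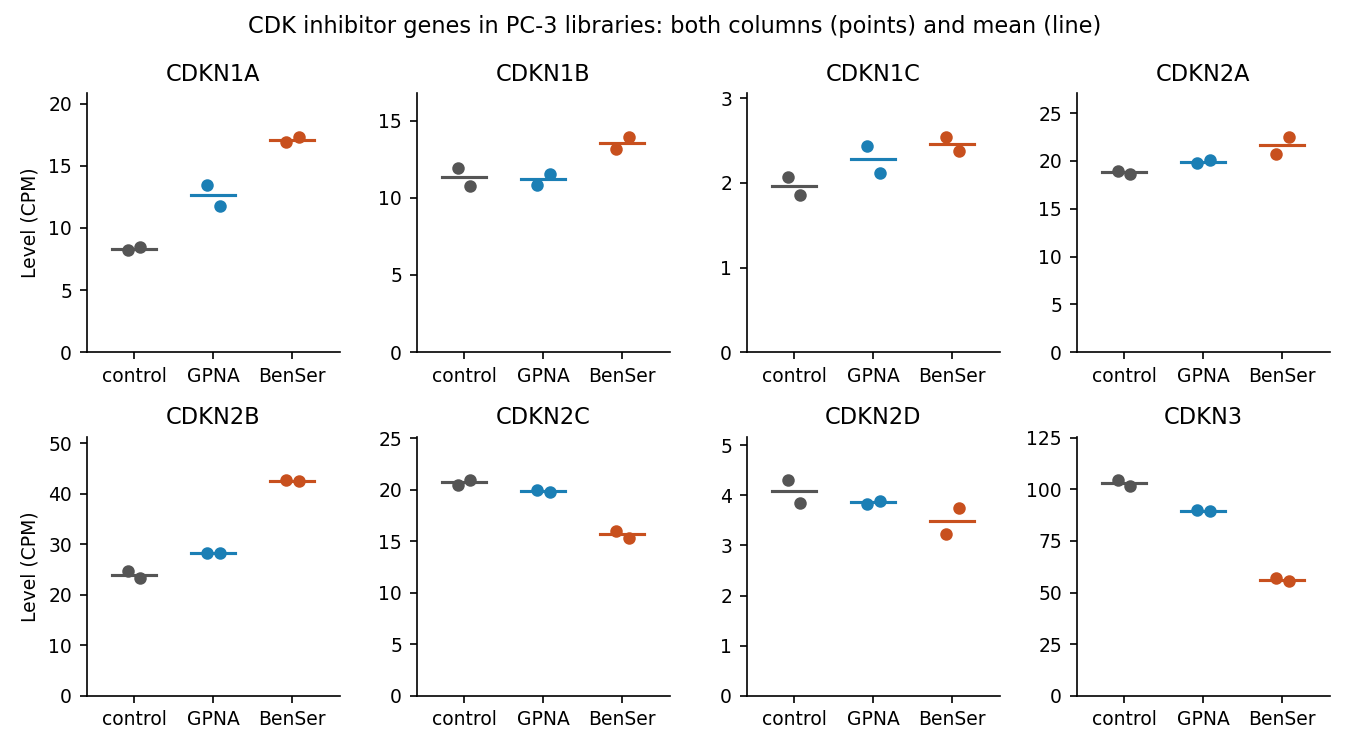
Level of each CDK inhibitor gene in CPM (vertical axes, each starting at 0) in the control, GPNA and BenSer groups; points are the 2 labelled columns of a group and bars their mean. CDKN1A and CDKN2B climb from control to BenSer while CDKN3 goes from 104 and 102 CPM down to 56.8 and 55.8 CPM.

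Among the Cip/Kip genes, CDKN1A encodes p21, the inhibitor switched on by DNA damage and other stresses. Its level was 8.18 and 8.45 CPM in the control columns, 13.5 and 11.7 CPM with GPNA, and 16.9 and 17.3 CPM with BenSer. The 3 groups did not overlap, and the spread between the GPNA columns was the widest of the 3. The difference from control was 0.55 (0.38 to 0.72) with GPNA and 0.96 (0.81 to 1.11) with BenSer. The GPNA value fell just short of 1.5-fold, and passed it, at 0.64, when the second GPNA column was left out. All genes with enough reads included, 99.6% of differences for GPNA and 99.5% of those for BenSer were at or below that of CDKN1A. BenSer cells also stood above GPNA cells, by 0.41 (0.28 to 0.54).

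CDKN1B encodes p27, a protein governed largely by its breakdown through the ubiquitin ligase subunit SKP2. It measured 11.9 and 10.8 CPM in control, 10.9 and 11.6 CPM with GPNA, and 13.1 and 14.0 CPM with BenSer. Control and GPNA columns overlapped, with a difference of -0.02 (-0.18 to 0.14). BenSer columns lay above both, by 0.24 (0.09 to 0.38) over control. That interval came to include 0 when the second control column was left out, at 0.17 (-0.01 to 0.36). CDKN1C, which encodes p57 and is an imprinted gene, was the scarcest of the group, at 2.07 and 1.86 CPM in control, 2.44 and 2.12 CPM with GPNA, and 2.55 and 2.38 CPM with BenSer. Its columns did not overlap between control and either treatment, yet the differences of 0.15 (-0.13 to 0.42) and 0.22 (-0.04 to 0.48) were not distinguishable from 0 at this depth. Columns of a treatment that all lay above both control columns were common, at 22.4% of genes with GPNA (34.4% lay below) and 28.5% with BenSer.

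Of the INK4 genes, CDKN2A and CDKN2B are neighbours on the minus strand of chromosome 9p21. Their annotated spans in GRCh37, 21967751 to 21995300 for CDKN2A and 22002902 to 22009304 for CDKN2B, are 7601 bases apart. CDKN2B encodes p15, the classic TGF-beta-induced inhibitor of CDK4 and CDK6. It measured 24.7 and 23.3 CPM in control, 28.3 and 28.2 CPM with GPNA, and 42.7 and 42.5 CPM with BenSer. No group overlapped another, and the differences from control were 0.23 (0.12 to 0.34) and 0.81 (0.71 to 0.90). CDKN2A encodes p16 and, from another first exon, the MDM2 inhibitor ARF, which counts per gene do not separate. It measured 19.0 and 18.7 CPM in control, 19.7 and 20.1 CPM with GPNA, and 20.7 and 22.5 CPM with BenSer. The columns were in separate ranges, but the difference with GPNA, 0.08 (-0.05 to 0.20), included 0. The BenSer difference of 0.19 (0.07 to 0.31) did not, except when the second BenSer column was left out, at 0.13 (-0.01 to 0.27).

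Reads of CDKN2B per read of CDKN2A went from 1.30 and 1.25 in the control columns to 1.43 and 1.40 with GPNA and 2.06 and 1.89 with BenSer. With BenSer the neighbours did not shift in proportion, as their intervals of 0.71 to 0.90 and 0.07 to 0.31 lay apart. With GPNA their intervals of 0.12 to 0.34 and -0.05 to 0.20 overlapped, and no interval was computed for the ratio. Transcripts of CDKN2A and CDKN2B share a stretch of 259 to 277 aligned bases at 91.7 to 93.05% identity, where short reads could have been assigned to either gene or dropped. CDKN2B-AS1 (ANRIL), the long non-coding RNA on the plus strand of the locus from 21994138 to 22128102, has an exon that overlaps CDKN2A, and the strand setting of the authors' counting is not given in the sources used here. CDKN2B-AS1 itself was low, at 1.77 and 2.30 CPM in control, 2.33 and 2.20 CPM with GPNA and 1.96 and 1.66 CPM with BenSer. Its differences of 0.11 (-0.17 to 0.38) and -0.11 (-0.38 to 0.16) were not distinguishable from 0. On either side of the INK4 pair, DMRTA1 was higher with BenSer by 0.34 (0.13 to 0.55) and MTAP, the methylthioadenosine salvage enzyme often co-deleted with CDKN2A, lower at -0.12 (-0.21 to -0.03), an interval that included 0 under TMM scaling (-0.17 to 0.02).

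CDKN2C encodes p18 and CDKN2D p19, the other two INK4 proteins. CDKN2C measured 20.5 and 20.9 CPM in control, 19.96 and 19.8 CPM with GPNA, and 16.0 and 15.3 CPM with BenSer. It was lower with BenSer, at -0.38 (-0.50 to -0.26), whereas the GPNA difference of -0.06 (-0.18 to 0.07) included 0. The INK4 genes thus lay on opposite sides of control in BenSer cells, with CDKN2B and CDKN2A higher and CDKN2C lower. CDKN2D measured 4.31 and 3.86 CPM in control, 3.84 and 3.89 CPM with GPNA, and 3.23 and 3.76 CPM with BenSer. Control and GPNA columns overlapped, and both of its differences, -0.06 (-0.30 to 0.17) and -0.18 (-0.40 to 0.05), included 0.

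CDKN3 measured 104 and 102 CPM in control, 89.8 and 89.3 CPM with GPNA, and 56.8 and 55.8 CPM with BenSer. The groups were fully separate, with differences of -0.20 (-0.26 to -0.14) and -0.86 (-0.92 to -0.80). With BenSer only 0.148% of genes with enough reads had a difference at or below that of CDKN3, and with GPNA 12.6% did. In a bulk culture, fewer cells in division and less of this RNA in each cell cannot be told apart. Only CDKN1A, CDKN2B and CDKN3 had all 3 group levels separated beyond counting error. The share of all genes with all 3 levels separated was not counted. Single pairs were separated for 29.9% (GPNA and control), 44% (BenSer and control) and 41.9% (BenSer and GPNA) of all genes. For CDKN1B, CDKN2A and CDKN2C the control and GPNA levels were not separated, and for CDKN1C and CDKN2D no pair of groups was. The gap of CDKN2A between BenSer and GPNA was marginal, at 0.11 with a lower bound of 7.48e-05.

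**Figure D2:**
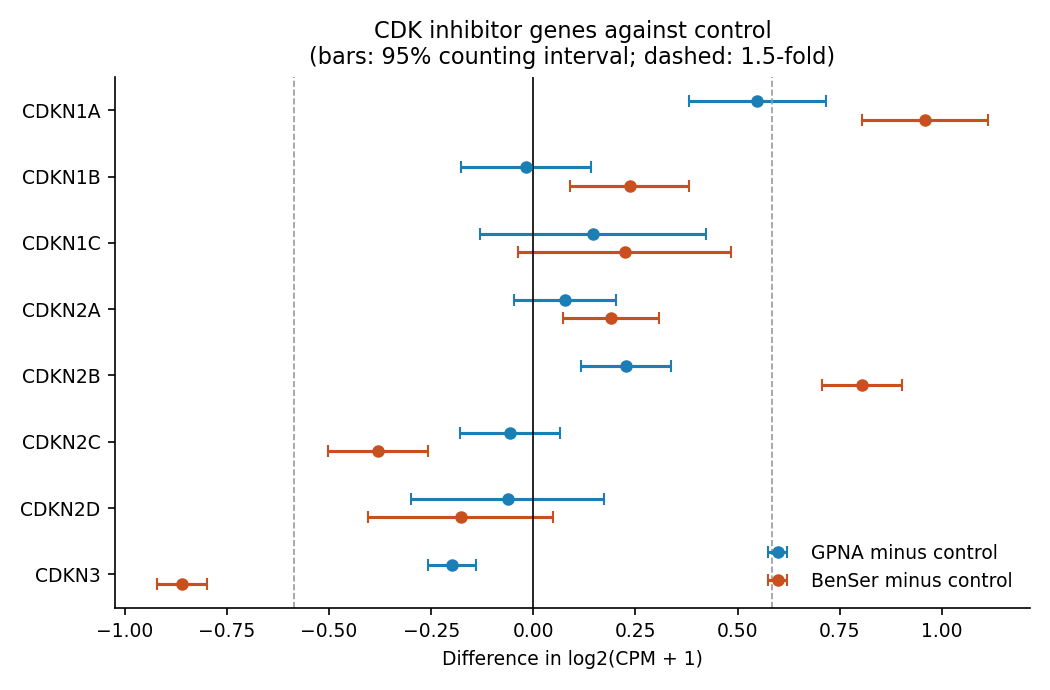
Difference in log2(CPM + 1) from control (horizontal axis) for each CDK inhibitor gene with GPNA and with BenSer; points are pooled columns, bars exact 95% counting intervals, dashed lines 1.5-fold. CDKN1A at 0.96 and CDKN2B at 0.81 lie beyond the upper line and CDKN3 at -0.86 beyond the lower line with BenSer, and no gene lies beyond either line with GPNA.

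Per kilobase of the canonical transcript, CDKN3 was by far the most abundant of these RNAs in control cells, at 122 CPM per kb. CDKN2C at 20.8 and CDKN2A at 19.3 CPM per kb followed, ahead of CDKN2B (6.22), CDKN1B (4.71), CDKN1A (3.93), CDKN2D (2.86) and CDKN1C (1.11). In BenSer cells CDKN3 was still first at 66.9 CPM per kb, CDKN2A at 22.1 exceeded CDKN2C at 15.8, CDKN2B reached 11.1, and CDKN1A at 8.08 exceeded CDKN1B at 5.62 CPM per kb. The ranks below CDKN3 depend on which transcript is used, since over all annotated exons CDKN2B at 5.99 CPM per kb passed CDKN2A at 4.85 already in control.

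The closest genes to CDKN1A in the pair of differences over the 3 groups, among 13669 genes of at least 1 CPM, were TP53INP1, PLSCR1 and PRR15, at Euclidean distances of 0.06, 0.07 and 0.07. TP53INP1, a stress-induced nuclear protein gene, differed by 0.49 with GPNA and 0.96 with BenSer. Few genes lay that near, with 7 within 0.1 of CDKN1A. CDKN2B had 34 such neighbours, led by AHNAK2, LURAP1L and the histone demethylase gene KDM7A, at 0.02, 0.03 and 0.03. CDKN3 had 13, led by CDCA3, CEP55 and TRIP13, at 0.02, 0.04 and 0.04. CEP55 acts in the last step of cell division and TRIP13 in the spindle checkpoint. These distances describe 3 groups with a shared control and carry no test.

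**Figure D3:**
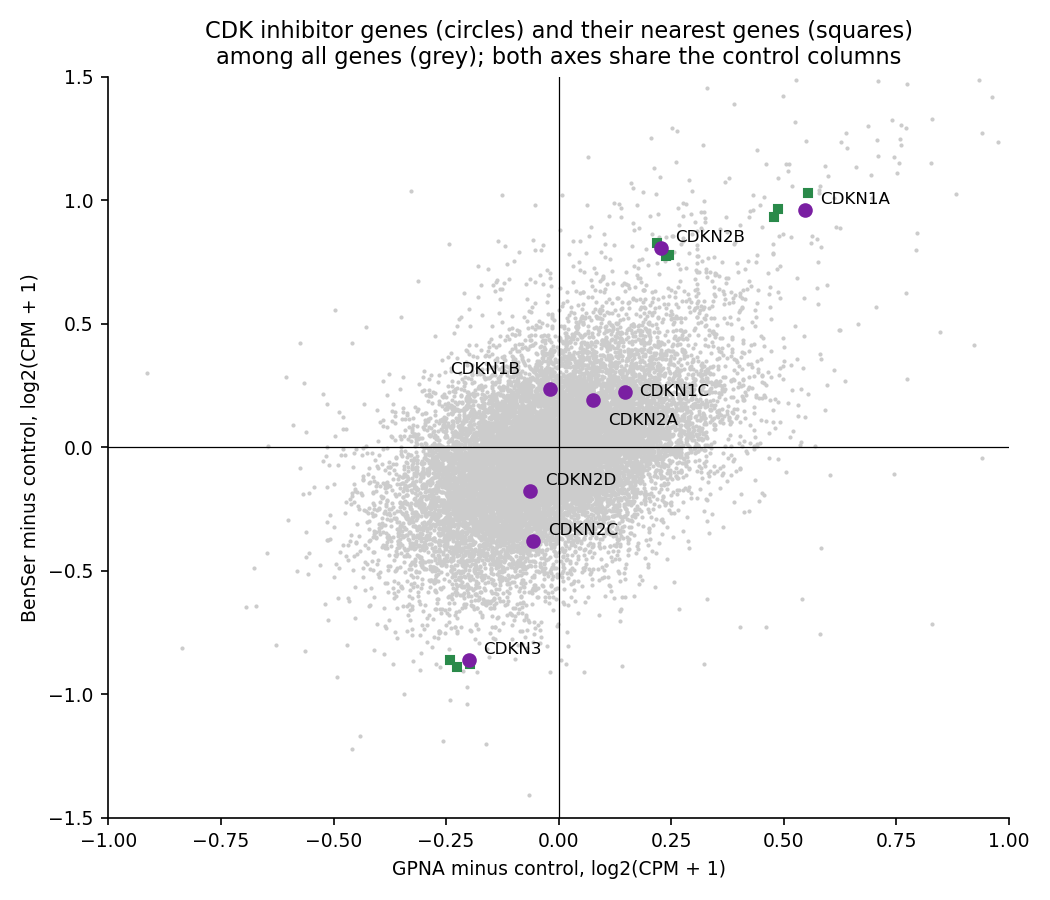
Difference in log2(CPM + 1) from control with GPNA (horizontal axis) against that with BenSer (vertical axis) for 18588 genes (grey) and the 8 CDK inhibitor genes (labelled), with their nearest genes as squares and 18 further genes beyond the axes. CDKN1A stands at 0.55 and 0.96, with few genes near it (7 of at least 1 CPM within 0.1), CDKN2B at 0.23 and 0.81, and CDKN3 at -0.20 and -0.86.

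The kinases and cyclins that these inhibitors bind were mostly lower. Of 11 genes with enough reads, 7 were lower and 1 higher with GPNA, and 8 lower and 0 higher with BenSer, with medians of -0.11 and -0.35 against -0.03 over all genes in both comparisons. Over all genes the interval lay below 0 for 20.1% with GPNA and 25.8% with BenSer, and above 0 for 9.78% and 18.2%. TMM scaling, under which 14.6% and 21.6% of all genes were lower, left 6 lower with GPNA and 8 with BenSer, with 1 higher in each. Over all genes 13.7% and 22.2% were higher under that scaling. CDK4, a direct INK4 target, went from 20.1 CPM in control to 17.8 CPM with GPNA, a difference of -0.17 (-0.29 to -0.04), and to 14.2 CPM with BenSer, -0.47 (-0.59 to -0.34). CDK6, the other INK4 target, was lower with GPNA at -0.34 (-0.41 to -0.26) and not distinguishable from control with BenSer at -0.06 (-0.13 to 0.01). CDK2, the main Cip/Kip partner in S phase, was lower in both, at -0.16 (-0.26 to -0.05) and -0.32 (-0.42 to -0.21). The mitotic kinase CDK1 was the lowest of the list with BenSer at -0.70 (-0.75 to -0.64), followed by its partner CCNB1 at -0.54. CCND3, a D-type cyclin, was lower with GPNA at -0.22, and CCNE1, the cyclin that activates CDK2, was the only one higher, at 0.24 (0.02 to 0.46). With BenSer they stood at 0.13 and 0.01, and both intervals included 0. Under TMM scaling CCND3 was higher with BenSer, at 0.17 (0.04 to 0.30).

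Of the 13 RB and E2F genes downstream, 5 were lower and 1 higher with GPNA (20.1% and 9.78% of all genes), and 8 lower and 0 higher with BenSer (25.8% and 18.2%). Under TMM scaling 3 were lower and 2 higher with GPNA, or 23.1% and 15.4% beside 14.6% and 13.7% of all genes, so the GPNA counts lay near the background. With BenSer TMM scaling gave 8 lower and 2 higher, or 61.5% and 15.4% beside 21.6% and 22.2% of all genes. E2F1, which drives S-phase genes, was lower at -0.24 (-0.36 to -0.11) with GPNA and -0.22 (-0.34 to -0.10) with BenSer. Its partner TFDP1 was lower at -0.22 with GPNA and -0.46 with BenSer. RBL2, the pocket protein of resting cells, was higher at 0.18 with GPNA. Its BenSer value of 0.08 (-0.03 to 0.19) included 0, but under TMM scaling it lay above 0, at 0.12 (0.01 to 0.23). With BenSer E2F8 went from 21.01 to 11.1 CPM, at -0.86 (-0.99 to -0.73), and E2F2 from 6.93 to 4.27 CPM, at -0.59 (-0.79 to -0.39), while with GPNA both intervals included 0. Of the 24 mitotic genes 14 were lower with GPNA and 24 with BenSer, beside 20.1% and 25.8% of all genes. Their medians were -0.10 and -0.59. With BenSer 12 of the 24 were past 1.5-fold lower, beside 1.58% of all genes. Under TMM scaling 10 and 24 were lower and 0 higher, where 14.6% and 21.6% of all genes were lower. PLK1, a kinase of mitotic entry, was lower at -0.31 (-0.40 to -0.22) with GPNA and -0.64 (-0.72 to -0.55) with BenSer. HMMR and KIF23, which act on the spindle, were the lowest with BenSer at -0.91 (-0.99 to -0.84) and -0.79 (-0.86 to -0.72), and their GPNA values of -0.02 and -0.06 had intervals that included 0. The part of the share of dividing cells in its difference was not tested.

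The ubiquitin ligases that break down the inhibitor proteins were lower for 5 of 12 genes with GPNA and 9 of 12 with BenSer, and higher for 0 in either, where 20.1% and 25.8% of all genes were lower. Under TMM scaling 4 and 8 were lower, beside 14.6% and 21.6% of all genes. In each, 1 was higher, beside 13.7% and 22.2% of all genes. SKP2, which targets p27 and p21, went from 50.5 CPM to 44.1 CPM with GPNA, at -0.19 (-0.27 to -0.11), and to 39.8 CPM with BenSer, at -0.34 (-0.42 to -0.26). DTL, the p21 receptor of the CUL4 ligase, was lower at -0.13 (-0.22 to -0.05) with GPNA and -0.69 (-0.78 to -0.59) with BenSer. CDC20, an activator of the anaphase-promoting complex and also a mitotic gene, was lower in both, at -0.35 (-0.42 to -0.28) and -0.64 (-0.71 to -0.57). These are RNA levels, and protein levels of the inhibitors were not analysed here.

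Regulators of transcription at these genes went both ways, with 5 of 33 higher and 9 lower with GPNA, and 11 higher and 9 lower with BenSer, or 6 against 7 and 13 against 8 under TMM scaling. With GPNA these are 15.2% and 27.3% of the list (18.2% and 21.2% under TMM scaling), near the shares over all genes of 9.78% and 20.1% (13.7% and 14.6%). With BenSer they are 33.3% and 27.3%, beside 18.2% and 25.8% of all genes. Under TMM scaling the BenSer shares are 39.4% and 24.2%, beside 22.2% and 21.6% of all genes. MDM2, which encodes a ubiquitin ligase, measured 35.6, 34.0 and 38.3 CPM in control, GPNA and BenSer cells, with differences of -0.06 (-0.16 to 0.03) and 0.10 (0.02 to 0.19). DDIT3, the CHOP factor of the stress response, was higher in both, at 0.58 (0.39 to 0.78) and 0.81 (0.63 to 0.99). ATF4, which acts upstream of DDIT3, was higher at 0.31 (0.26 to 0.37) and 0.55 (0.51 to 0.60). ID1, induced by SMAD signalling, was higher with BenSer at 0.80 (0.74 to 0.86). The Polycomb genes EZH2 and SUZ12, whose complex silences the 9p21 locus in many cells, were lower with BenSer at -0.48 (-0.57 to -0.39) and -0.37, and EZH2 was also lower with GPNA at -0.29 (-0.38 to -0.19). Other Polycomb genes of the list, named after their values were seen, lay on both sides with BenSer, with EED lower at -0.25 (-0.42 to -0.09), BMI1 higher at 0.17 (0.07 to 0.28), CBX7 higher at 0.25 (0.06 to 0.44), and RNF2 at -0.14 (-0.29 to 0.01). ZBTB17 (MIZ1), an activator of CDKN2B and CDKN1A, was lower with GPNA at -0.22. With BenSer it stood at 0.08 (-0.03 to 0.20), and under TMM scaling its interval lay above 0, at 0.13 (0.01 to 0.24).

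Genes known as targets of FOXO factors and of TGF-beta signalling were also listed, and whether those pathways changed was not tested. Of 16 FOXO targets 7 were higher and 3 lower with GPNA, and 9 higher and 0 lower with BenSer, with medians of 0.17 and 0.26. As shares of the list these are 43.8% higher and 18.8% lower with GPNA, beside 9.78% and 20.1% of all genes, and 56.2% and 0% with BenSer, beside 18.2% and 25.8%. TMM scaling gave 7 higher and 3 lower with GPNA, and 12 higher and 0 lower with BenSer. Over all genes that scaling gave 13.7% higher and 14.6% lower with GPNA, and 22.2% and 21.6% with BenSer. CCNG2, an atypical cyclin of arrested cells, was higher in both at 0.56 (0.44 to 0.69) and 0.83 (0.71 to 0.95), and TXNIP, a brake on glucose uptake, reached 239 CPM with BenSer against 97.1 CPM in control, at 1.29 (1.25 to 1.34). The muscle-atrophy ligase gene FBXO32 was higher with GPNA at 0.36, and with BenSer at 0.75. PINK1 and BCL6 were lower with GPNA at -0.30 and -0.15 (-0.26 to -0.04). With BenSer BCL6 was instead higher, at 0.44 (0.34 to 0.53), and PINK1 stood at -0.00231, with an interval that included 0. Of 13 TGF-beta targets 5 were higher and 1 lower with GPNA, and 10 higher and 1 lower with BenSer, with medians of 0.09 and 0.38, beside the same shares of all genes. Under TMM scaling 7 were higher and 0 lower with GPNA, and 11 higher and 1 lower with BenSer. The shares of all genes under that scaling are those given for the FOXO targets. PMEPA1, a feedback inhibitor of the pathway, was higher in both at 0.31 (0.19 to 0.42) and 0.82 (0.71 to 0.92), and SKIL, another feedback inhibitor, was higher at 0.18 with GPNA and 0.47 with BenSer.

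**Figure D4:**
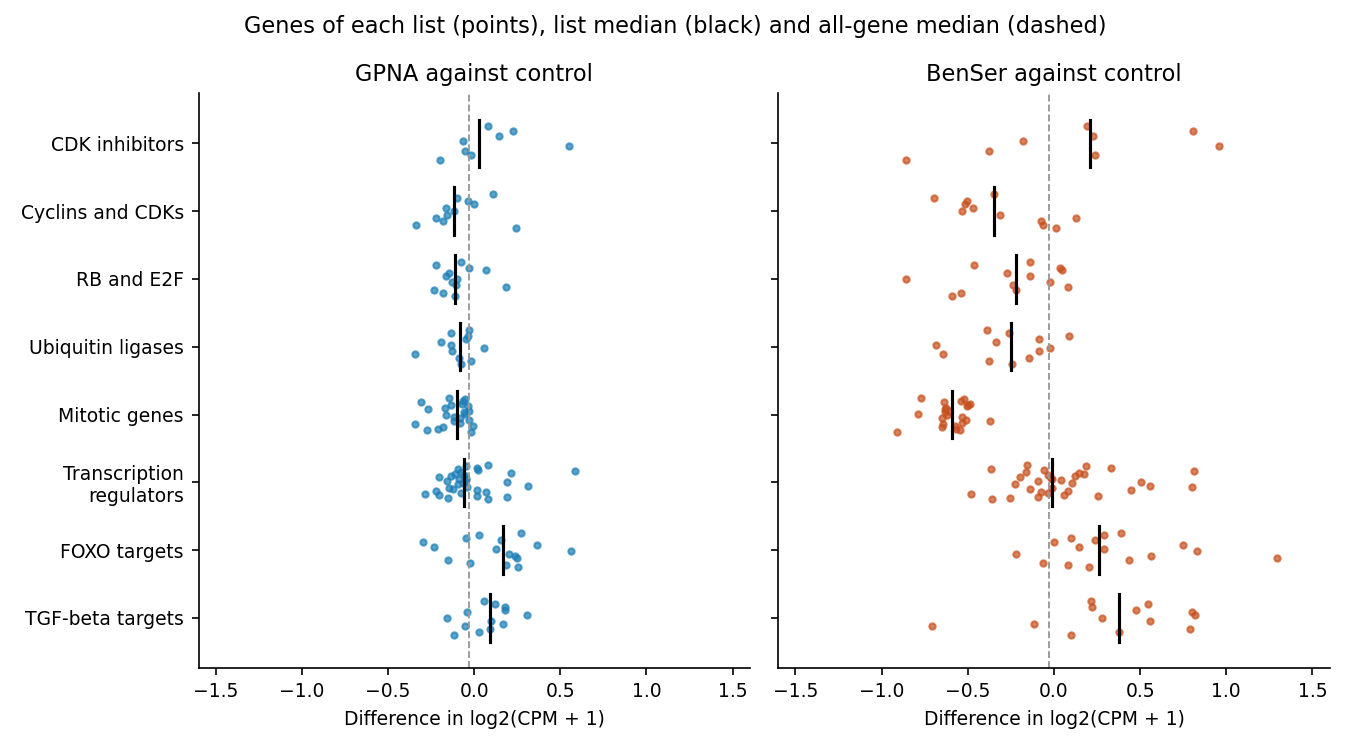
Difference in log2(CPM + 1) from control (horizontal axis) of each gene with enough reads in the lists of partners, regulators and targets of the CDK inhibitors, with GPNA and with BenSer; each point is a gene and each bar the median of its list. Mitotic genes, with medians of -0.10 and -0.59, lie wholly below 0 (with GPNA, 5 of 24 lie above it under TMM scaling), and most FOXO and TGF-beta targets lie above 0.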

How the data were processed

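RNA was measured by RNA-seq in PC-3 cells. Reads were mapped to hg19 (GRCh37.p13) with TopHat2 and Bowtie2 and counted with HTSeq 0.6.2p2, per the labels. The authors deposited CPM values, in columns named as counts, with the fold changes and p-values of their own comparisons, which were not used. Each group had 4 value columns, and the 6 columns that matched no label were not used. The smallest CPM above 0 in each column was taken as 1 read, which sets the library total. This gave whole reads for 100% of values (tolerance 0.001), and these reads give the depths and intervals. The 2 columns of a group were pooled as 1 sample.

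Differences were taken in log2(mean CPM + 1), with exact Clopper-Pearson intervals, for genes averaging at least 5 reads in either group. A difference was called past 1.5-fold, or by an interval on a single side of 0. These calls compare libraries, not treatments. All 8 inhibitors are named. From each list, the named genes are MDM2, SKP2, CDK2, CDK4, CDK6 and CDKN2B-AS1, with up to 2 genes in each direction with the largest difference, for genes of at least 1 CPM, an interval off 0 and columns apart from control. Results for some genes and a list that these rules cover are not reported here. Neighbours are the 3 nearest genes. The members and lists were chosen with earlier results of these data known. Gene positions come from GENCODE in GRCh37; promoters come from RefSeq (GRCh38.p14 table) and were placed in GRCh37 by exact match. Motif matches were counted on both strands. Scaling the lists by TMM and dividing levels by the length of all exons were chosen after seeing the data. Alternatives were other pseudocounts, filters and scalings, leaving out each column, and edgeR 4.0.16 (quasi-likelihood, Benjamini-Hochberg adjustment) and DESeq2 1.42.0 on the recovered reads. Analyses used Python 3.11.15, scipy 1.17.1 and R 4.3.3.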

Additional observations from a re-analysis of the deposited data

How the results depend on the processing

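The count of genes past 1.5-fold depended on the pseudocount, since it damps low genes. It was 76 with GPNA and 671 with BenSer at a pseudocount of 1 CPM, 1531 and 2602 at 0.1 CPM, and 31 and 273 at 5 CPM. Treating the 2 columns of a group as replicates, edgeR at an adjusted p under 0.05 called 3264 and 6813 genes and DESeq2 996 and 3955, which compares libraries rather than treatments. Columns of the same number did not deviate together (correlations of 0.01 to 0.02 over 13981 genes), and edgeR with the replicate number as a block called 3366 and 6195 genes and changed no edgeR call among the 8 inhibitors. DESeq2 with Benjamini-Hochberg adjustment did not call CDKN1B (adjusted p = 0.0769) or CDKN2A (0.0656) with BenSer, both of which edgeR called (0.0106 and 0.0140). Leaving out 1 column in turn gave 99 to 113 genes with GPNA and 696 to 749 with BenSer.

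Of the 8 inhibitors, 0 passed 1.5-fold with GPNA, and 1, CDKN1A, did so at a pseudocount of 0.1 CPM or without the second GPNA column (0 to 1 when each column was left out); with BenSer 3 passed under each other pseudocount and scaling and without each column. The filters on low values were tried for the counts over all genes only. CDKN1A with BenSer was 0.73 at a pseudocount of 5 CPM. TMM scaling and size factors moved the median of all genes by about 0.03, but shifted the split of interval calls from 1841 above and 3792 below 0 to 2575 and 2746 (TMM) with GPNA, and from 3455 and 4896 to 4204 and 4101 with BenSer. Depth limits CDKN1C and CDKN2D, whose intervals included 0 in every comparison.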
